A study of Mus musculus with 2 samples.

Results

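The genes described are the 4 neuregulins Nrg1 to Nrg4 and the 4 receptors of the epidermal growth factor (EGF) family, Egfr, Erbb2, Erbb3 and Erbb4. They were chosen by name, as 8 of 43346 Ensembl genes in the tables, and each symbol matched 1 identifier. RNA came from the hindbrain of B6NCrl mouse embryos at embryonic day 12.5, healthy and of both sexes, with 120 embryos pooled for replicate 1 and 88 for replicate 2. Both are biological replicates of 1 untreated group, each library was made from 10 ng of long total RNA with spike-ins added, and no other condition was compared, so every p-value sets 1 library against the other. Levels are in TPM, the length-normalised share of a transcript among all transcripts and spike-ins of a library, given as mean ± SD over the libraries (n = 2). Detection meant a level of at least 1 TPM in replicate 1 and in replicate 2.

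Neuregulins are ligands with an EGF-like domain, and many are made as membrane proteins that proteases cleave. Their direct receptors are Erbb3, whose kinase is impaired, and Erbb4, an active kinase. Erbb2 has no known ligand of its own and works as the shared partner, and Egfr binds the EGF group of ligands. In the developing hindbrain of the mouse this system is known for guiding cranial nerve fibres and neural crest cells, and Nrg1 on axons keeps Schwann cell precursors alive through Erbb2 and Erbb3.

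Alternative exons set which signal Nrg1 and Erbb4 can send, and they decide what these tables can show. Erbb4 proteins differ beside the membrane, where the JM-a form can be cut by the protease Adam17 and the JM-b form cannot, and in the cell, where the CYT-1 form holds a docking site for phosphatidylinositol 3-kinase that CYT-2 lacks. The Erbb4 transcripts quantified hold a 75-base or a 45-base exon at the juxtamembrane position, and a 48-base exon that is kept or skipped. These are the known lengths of the JM-a, JM-b and CYT-1 exons. The exons lie on chromosome 1 of GRCm38, minus strand, at chr1:68290243-68290317, chr1:68290439-68290483 and chr1:68043908-68043955, all within coding sequence. Below, capitals mark the alternative exon and lower case 15 bases of the exon on either side, read from GENCODE M21 transcripts.
Juxtamembrane exon of 75 bases (Erbb4-201 and Erbb4-202): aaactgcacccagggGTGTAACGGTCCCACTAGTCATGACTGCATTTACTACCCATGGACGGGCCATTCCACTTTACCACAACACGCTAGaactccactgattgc
Juxtamembrane exon of 45 bases (Erbb4-204 and Erbb4-205): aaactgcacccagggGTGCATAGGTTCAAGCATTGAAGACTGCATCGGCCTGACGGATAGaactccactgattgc
Cytoplasmic exon of 48 bases (Erbb4-201): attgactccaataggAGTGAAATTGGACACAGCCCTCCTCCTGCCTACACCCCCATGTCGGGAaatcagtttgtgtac
Same junction with the exon skipped (Erbb4-202): attgactccaataggaatcagtttgtgtac

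For Nrg1 the part of the EGF-like domain that sets receptor affinity is encoded by a beta or an alpha exon, and beta forms bind more strongly. The transcript tables quantified Nrg1 through 1 transcript, Nrg1-201, which carries the beta exon of 59 bases (chr8:31837670-31837728, minus strand). The alpha exon of 68 bases (chr8:31838261-31838328, minus strand) belongs to 4 of the 12 coding Nrg1 transcripts of GENCODE M21, and the beta exon to 8. Capitals again mark the exon.
Beta exon (Nrg1-201): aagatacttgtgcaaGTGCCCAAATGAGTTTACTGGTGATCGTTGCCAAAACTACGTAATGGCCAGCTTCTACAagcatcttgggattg
Alpha exon (Nrg1-206): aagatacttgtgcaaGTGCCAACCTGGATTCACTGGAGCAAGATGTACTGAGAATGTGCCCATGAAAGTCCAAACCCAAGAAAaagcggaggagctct

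Receptor RNA was more abundant than neuregulin RNA, and each group was led by 1 gene. Summed TPM of the receptors was 44.3 in replicate 1 and 43.7 in replicate 2, against 16.0 and 17.5 for the neuregulins. The log2 ratio of the sums was 1.47 and 1.32, a mean of 1.39 ± 0.10 (SD, n = 2), so it was far larger than its spread. The receptor sum includes Egfr, which binds the EGF group of ligands. Those ligands summed to 11.3 and 10.2 TPM and are not in the neuregulin sum. Nrg1 entered that sum through 1 transcript model alone. Erbb2 held 48.7% ± 1.22 of receptor TPM and Nrg1 65.5% ± 2.72 of neuregulin TPM. Of the 8 genes, 7 were detected, where 35.5% of all Ensembl genes were.

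Erbb2, the shared partner (chromosome 11, 98412470 to 98437716, plus strand), had 21.98 and 20.94 TPM in replicates 1 and 2, from 2000 and 1721 counts. It was the highest of the family in both libraries, at 21.5 ± 0.735 TPM, and ranked 7017th among the 43346 genes. Erbb3 (chromosome 10, 128567523 to 128589652, minus strand) had 9.55 and 7.93 TPM, a mean of 8.74 ± 1.15, from 1072 and 821 counts. Erbb4 (chromosome 1, 68032186 to 69108059, minus strand) had 7.48 and 8.58 TPM, a mean of 8.03 ± 0.778, from 671 and 742 counts. The ranges of these direct neuregulin receptors overlapped, with Erbb3 above Erbb4 in replicate 1 and below it in replicate 2, so their order was not resolved on the deposited scale. Egfr (chromosome 11, 16752203 to 16918158, plus strand), the receptor for EGF and its relatives, was the lowest receptor at 5.30 and 6.29 TPM, from 416 and 568 counts.

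Among the ligands, Nrg1 (chromosome 8, 31814551 to 32884029, minus strand) had 10.81 and 11.12 TPM, from 411 and 390 counts. At 11.0 ± 0.219 TPM it stood second in the family, below Erbb2 and above Erbb3 in both libraries. Nrg3 (chromosome 14, 38368952 to 39473088, minus strand), a ligand of Erbb4 found mainly in neural tissue, had 3.75 and 4.39 TPM from 244 and 268 counts. Nrg4 (chromosome 9, 55220222 to 55326844, minus strand), also a ligand of Erbb4, had 1.10 and 1.57 TPM from 38.5 and 44.8 counts. Nrg2 (chromosome 18, 36017652 to 36197380, minus strand), a ligand of Erbb3 and Erbb4, was the lowest at 0.38 and 0.42 TPM from 21 counts in each library. That is below the level set for detection but above the 0.0548 and 0.0595 TPM that 3 counts of this gene are worth. Erbb3 and Erbb4 were the only neighbours in the order of the 8 levels whose ranges overlapped. In bulk tissue a smaller number of expressing cells and less RNA per cell cannot be told apart.

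**Figure D1:**
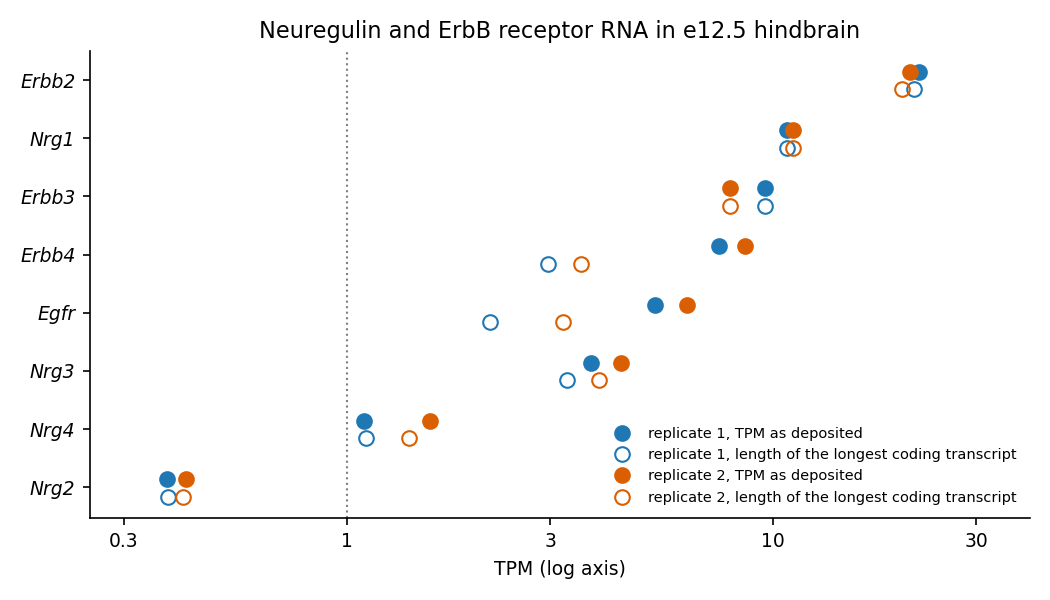
TPM (log axis) of each neuregulin and ErbB receptor gene in replicate 1 (blue) and replicate 2 (orange). Filled points are the deposited TPM and open points the same counts divided by the length of the gene's longest coding transcript; the dotted line is 1 TPM. Erbb2 was highest and Nrg2 lowest on either scale, while Erbb4 and Egfr had lower open than filled points.

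The levels of Erbb4 and Egfr rested on which of their transcripts received the fragments. The deposited TPM divides counts by a mean length of the transcripts in use, which was 4728 and 4942 effective bases for Erbb4 and 4139 and 5158 for Egfr. When all counts were set on the longest coding transcript instead, 12037 bases for Erbb4-202 and 10208 for Egfr-201, Erbb4 fell to 3.26 ± 0.417 TPM, 0.406 times the deposited level. Egfr fell to 2.69 ± 0.737 TPM, 0.464 times the deposited level. The other 6 genes stayed between 0.885 and 1.00 times. On that scale Erbb3 stood above Erbb4 in both libraries. When only coding transcripts were summed, Erbb4 had 5.89 and 7.87 TPM against 9.55 and 7.93 for Erbb3, nearly equal in replicate 2. With the longest coding transcript Nrg3, at 3.60 ± 0.444 TPM, overlapped Erbb4, and Erbb4 overlapped Egfr. The log2 ratio of receptor to neuregulin sums was then 1.13. Both scales were chosen after the data were seen.

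For Erbb4, the coding transcript Erbb4-202, with the 75-base exon and without the 48-base exon, held 506 of 671 counts in replicate 1 and 531 of 742 in replicate 2. That is 75.4% (95% Wilson interval 72.0% to 78.5%) and 71.5% (68.2% to 74.7%) of the gene's counts. Its share of the gene's TPM was only 29.9% and 29.6%, because it is 12037 bases long. The intervals of count shares cover counting error and not the uncertainty of allocating fragments among overlapping models. Erbb4-205, with the 45-base exon, held 21.7% (18.8% to 25.0%) and 26.2% (23.1% to 29.4%) of counts. It took 49.0% and 61.7% of TPM, the largest share in both libraries. Its annotated model of 2196 bases is incomplete at the 3′ end, and none of its exon bases is private to it among the 5 models, and the 45-base exon is shared with Erbb4-204. Erbb4-204 was at 0 counts in both libraries. How much of the Erbb4-205 share follows from its truncated model was not tested.

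The transcript with the 48-base exon was given few counts. Erbb4-201, which is the only quantified transcript with that exon and also has the 75-base exon, received 0 and 9.10 counts, 0% and 1.23% of the gene's counts (95% Wilson interval 0% to 0.569% and 0.639% to 2.29%). Erbb4-202, which skips it, was given the 506 and 531 counts above. In counts allocated to full-length models, CYT-2 thus stood far above CYT-1 in both libraries. Erbb4-201 has only 48 private bases of its 11782, and Erbb4-202 has 303. The intervals take allocated counts as observed and leave out the uncertainty of the allocation. Fragments over the exon itself were not counted here. Erbb4-205 ends before this position and does not bear on it. Erbb4-203, a fragment of 744 bases with a retained intron, took 21.2% and 8.19% of TPM from 19.4 and 7.93 counts.

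Nrg1 offers no such split. The deposited model length of 2103 bases equals the coding bases of Nrg1-201 with the stop codon, so the value carries no untranslated sequence. GENCODE M21 lists 18 Nrg1 transcripts, and the coding bases of Nrg1-201 are 20.3% of their exon bases and 70.3% of their coding bases. Its first exon (chr8:31917537-31918280) lies between the exons of the immunoglobulin-like domain and those of the EGF-like domain, where type III neuregulin has the exon of its cysteine-rich domain. Of the 12 coding transcripts in M21, 8 hold 4 exons upstream of it, the longest of 178 bases (chr8:31968008-31968185), in the stretch that encodes the immunoglobulin-like domain, and 4 hold the first exon of Nrg1-201. The share of Nrg1-201 is therefore 100% by construction, and the Nrg1 level counts fragments that match this 1 model; the other forms were not analysed here.

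Coding and non-coding transcripts divided the other members unevenly. Erbb3 has 1 transcript, Erbb3-201, with all 1072 and 821 counts. Erbb2-201, the coding transcript, took 79.8% and 86.9% of Erbb2 TPM, and Erbb2-202, a processed transcript of 4431 bases, 20.2% and 9.68%, from 364 and 154 counts. Erbb2-202 was thus given fewer counts in replicate 2, while Erbb2-201 had nearly equal TPM of 17.6 and 18.2. Only 81 bases of Erbb2-202 are private to it, and its posterior mean shares were closer, at 19.7% and 13.2%. The difference of this transcript between the libraries was not tested. Egfr-201, the full-length receptor with 3630 coding bases, held 72.8% and 74.3% of Egfr counts. Egfr-202, with 1965 coding bases, held 23.0% and 23.5% of counts but 33.5% and 42.7% of TPM. It is the short form whose product is known as a secreted ectodomain.

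Nrg3-201, a coding transcript, took 47.0% and 53.4% of Nrg3 TPM, and Nrg3-204, which retains an intron, 34.4% and 30.8%. The coding transcripts of Nrg3 together were at 2.46 and 3.03 TPM. All 21 counts of Nrg2 in each library were given to Nrg2-202, and its posterior mean share was 41.1% ± 1.56, against 40.6% ± 0.686 for Nrg2-203, so these models were not told apart.

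The Nrg4 value is the least certain of the family. Both of its coding transcripts were listed at 0 TPM, and Nrg4-209, a processed transcript, took 72.7% and 53.4% of Nrg4 TPM, with Nrg4-207, of the nonsense-mediated decay class, at 27.3% and 29.7%. Nrg4-209 differs from the other 12 models by 1 private base and the coding transcript Nrg4-213 by 23. In the posterior mean, a second deposited estimate, Nrg4 had 2.13 and 2.67 TPM, and the coding transcripts held 18.3% and 19.2%. Nrg4-207 and Nrg4-209 share 202 and 166 exon bases with Fbxo22, a gene on the opposite strand at 69.7 and 70.2 TPM, and Nrg4-213 shares 166. The labels do not say whether the protocol was stranded, so fragments of Fbxo22 and Nrg4 in that stretch cannot be told apart. Nrg4 was also the only member whose counts were not whole within 0.005. Of the other members, Nrg1 shared 482 annotated exon bases with Gm26578, at 0.11 and 0.13 TPM, and Erbb2 shared 9 with Mien1, both on the opposite strand.

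**Figure D2:**
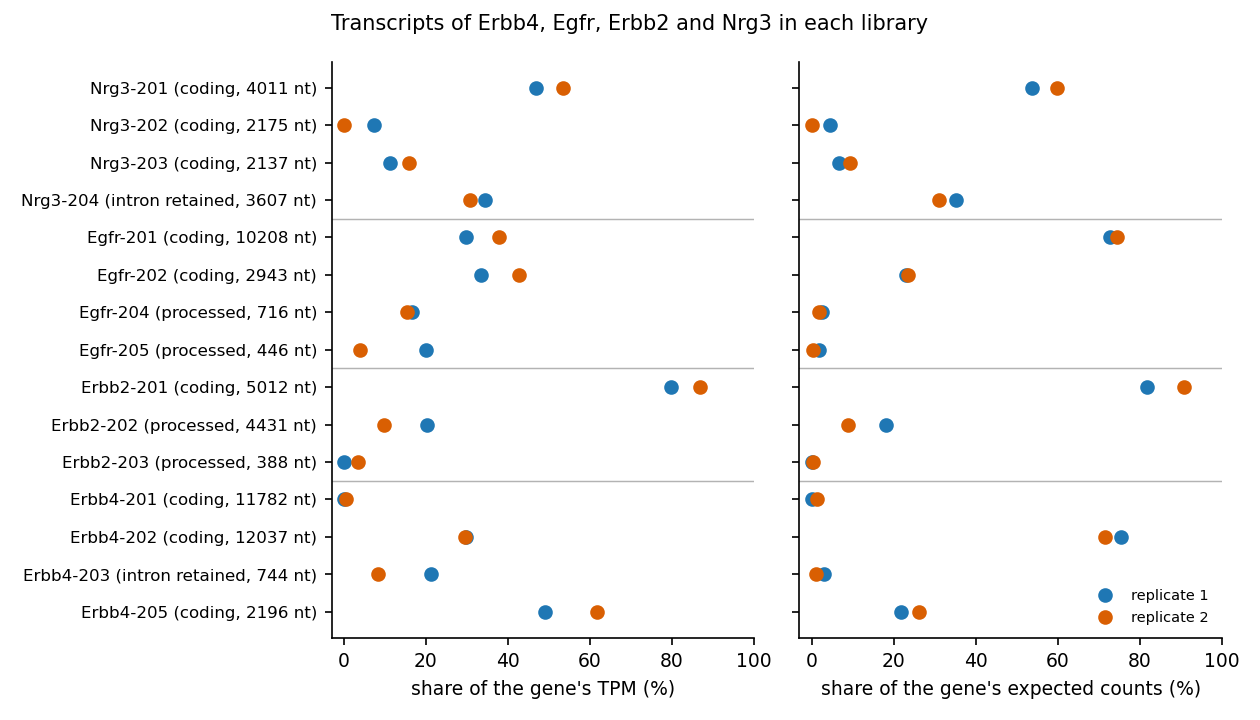
Share of each gene's TPM (left) and of its expected counts (right), in percent, for the transcripts of Nrg3, Egfr, Erbb2 and Erbb4 above 0 TPM in either library (replicate 1 blue, replicate 2 orange). Long transcripts such as Erbb4-202 and Egfr-201 lie far to the right in counts and short ones such as Erbb4-205 gain in TPM.

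Between the pools the receptors moved in different directions, with log2 count ratios from -0.28 (Erbb3) to 0.55 (Egfr) after scaling by TMM. The exact binomial test, which allows for counting error only, called 3 of the 8 members, beside 20.4% of 19209 genes (10.7% up and 9.68% down in replicate 2). After scaling by TMM, Egfr and Erbb4 were called higher and Erbb3 lower in replicate 2, and with scaling by spike-in counts Erbb4 turned to a log2 ratio of -0.12, which was not called. That scaling moved the median of all genes by -0.37, and 2.51% of its calls were higher in replicate 2, against 52.6% with TMM. The edgeR exact test adds a common dispersion, estimated from the same 2 libraries that it compares. The differences tested thus also entered that dispersion. This test called 1.57% of genes (0.942% higher and 0.625% lower) and none of the 8. Its unadjusted p was under 0.05 for 1 member, Egfr.

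In counts scaled by TMM, Egfr had the largest difference of the members, a ratio of 1.46. Its log2 ratio was 0.55 (95% exact interval 0.37 to 0.74). Adjusted p was 8.87e-08 in the exact binomial test and 0.268 in the edgeR exact test. Of 4498 genes with a mean of 5 to 20 TPM, 3.82% had a larger log2 ratio in size, and their median size was 0.11. With spike-in scaling its log2 ratio was 0.18 and no longer called (adjusted p 0.0731 in the exact binomial test). In TPM the log2 ratio of Egfr was only 0.25, since its deposited effective length differed between the libraries. Nrg4 at 0.51 and Erbb3 at -0.27 had larger log2 ratios of TPM in size. Erbb3 fell by 0.28 in log2 in replicate 2 (interval -0.42 to -0.15, adjusted p 0.000318 in the exact binomial test and 1 in the edgeR exact test). Erbb4 rose by 0.25 (0.09 to 0.40, adjusted p 0.0104 and 1 in the same tests). Erbb2, at -0.12 (-0.21 to -0.02), had an adjusted p of 0.0676 in the exact binomial test. The neuregulins had log2 ratios of 0.03 for Nrg1 (-0.18 to 0.23), 0.24 for Nrg3 (-0.02 to 0.49), 0.35 for Nrg4 (-0.31 to 1.01) and 0.10 for Nrg2 (-0.84 to 1.05), all with TMM and all below 0 with spike-in scaling. With TMM none of the 4 was called by either exact test, while with spike-in scaling the exact binomial test called Nrg1 lower (log2 ratio -0.34, adjusted p 0.00151). For Nrg2 and Nrg4 the intervals were wide, so only a large difference was detectable at this depth.

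**Figure D3:**
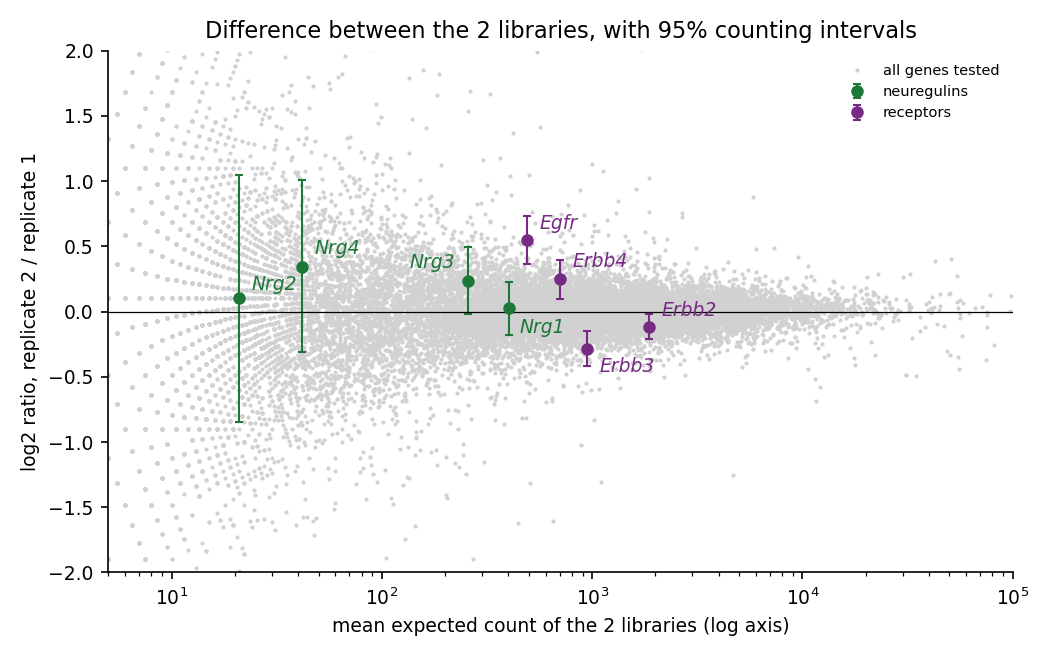
Log2 ratio of replicate 2 to replicate 1, scaled by TMM, against the mean expected count of a gene (log axis). Grey points are all genes tested with counts in both libraries, cut at 2 in size; green points are neuregulins and purple points receptors, with 95% exact intervals for counting error. Egfr lies highest among the well-counted members and Erbb3 lowest, and the intervals of Nrg2 and Nrg4 are the widest.

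Markers of other tissues moved between the pools as well. All 8 skeletal muscle markers rose in replicate 2 by the edgeR exact test, with summed levels of 62.3 and 294 TPM in replicates 1 and 2. Epithelial and otic markers summed to 338 and 161 TPM, with 5 of 5 lower by the exact binomial test and 2 of them, Oc90 and Epcam, by the edgeR exact test. The 5 meningeal and mesenchymal markers summed to 1333 and 1737 TPM, with 5 of 5 higher by the exact binomial test and none called by edgeR. Over all genes the exact binomial test called 10.7% higher and 9.68% lower in replicate 2, and the edgeR exact test 0.942% and 0.625%. The 6 markers of crest glia and Schwann cell precursors, cells that use Erbb3 (5 of them detected), summed to 34.0 and 35.0 TPM. Among them Sox10, a transcription factor that acts on Erbb3 in crest cells, fell with Erbb3, from 15.4 to 9.60 TPM (log2 ratio -0.69, adjusted p 0.0455 in the edgeR exact test), while Foxd3 had 3.55 and 4.08 TPM and Gfra3 2.28 and 3.99 TPM. No marker of these 4 lists was at 0. Their part in the differences of Egfr, Erbb3 and Erbb4 was not tested. The label of the tissue stood against its markers as given: 6 hindbrain genes such as Hoxa2 and Meis1 had a median of 45.8 and 59.1 TPM, and 4 forebrain genes 0.97 and 0.545 TPM.

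The genes that work with this family were mostly present. Of 51 genes in 6 lists, 46 (90.2%) were detected, and the exact binomial test called 10 higher and 6 lower of the 48 tested, 33.3% beside 20.4% of all genes. The edgeR exact test called 1 of them, and 4 had an unadjusted p under 0.05 in it.

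EGF group ligands, which bind Egfr, were low. Of 7, only Tgfa at 5.85 and 4.35 TPM and Hbegf, which also binds Erbb4, at 4.22 and 4.50 TPM were detected. Egf came next at 0.55 and 1.07 TPM, and Ereg had 0 counts in both libraries. The exact binomial test called Egf higher and Btc lower in replicate 2, and the edgeR exact test called neither. The list median was 0.55 and 0.21 TPM, below that of the members at 6.39 and 7.11. The EGF-like membrane proteins Tmeff1, at 242 ± 1.24 TPM, Tmeff2, at 26.9 ± 1.11 TPM, and Cspg5, at 10.9 ± 0.0354 TPM, all 3 of that list, were detected.

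All 11 genes for cleavage of ligands and receptors were detected, at medians of 29.9 and 28.0 TPM. The γ-secretase subunits Psenen (107 ± 4.25 TPM) and Ncstn (106 ± 1.41) led, with Adam10 (76.3 ± 5.98), a protease that sheds EGF group ligands, next and the iRhom gene Rhbdf2 (3.32 ± 0.474) lowest. Adam17, which cuts the JM-a form of Erbb4, was at 29.92 and 27.98 TPM, and Bace1, which cleaves Nrg1, at 38.07 and 36.44 TPM. The exact binomial test called 2 of the 11 higher, Adam10 and Adam19, and Adam17 lower in replicate 2. Over all genes it called 10.7% higher and 9.68% lower. The edgeR exact test called none of the 11.

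All 13 adaptors and effectors were detected, led by the adaptor Grb2 (123 ± 6.39 TPM), the phospholipase Plcg1 (96.4 ± 1.29) and the phosphatidylinositol 3-kinase subunit Pik3r3 (88.9 ± 2.72). Shc3 was lowest at 2.40 ± 0.537 TPM. Grb7, an adaptor that binds Erbb2, fell from 3.62 to 1.59 TPM (147 and 59 counts, log2 ratio -1.22, adjusted p 0.00279 in the edgeR exact test). It was the only 1 of the 51 called by that test, and it fell beside the epithelial and otic markers, whose part in it was not tested.

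All 11 genes for brakes and receptor turnover were detected. The ubiquitin ligase Nedd4 was highest by far at 580.2 ± 9.67 TPM, followed by the ligase Itch (51.6 ± 4.89) and the deubiquitinase Usp8 (34.3 ± 2.43), with Wwp1 (9.99 ± 0.156) lowest. Rnf41, the ligase known to degrade Erbb3, was at 29.74 and 28.35 TPM, and Lrig1, which restrains the receptors, at 14.82 and 16.3 TPM. The exact binomial test called 4 of these higher and 1 lower in replicate 2, and the edgeR exact test none. Over all genes the exact binomial test called 10.7% higher and 9.68% lower. It calls small differences in well-counted genes: Nedd4, with 56300 and 53560 counts, was called higher at a log2 ratio of 0.029.

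The 6 partners of the Erbb4 intracellular domain were detected. Ncor1 (162 ± 1.04 TPM) and Tab2 (18.1 ± 0.113) are known to form a complex with it that represses glial genes, and Yap1 (27.4 ± 2.18) binds it through WW domains. Stat5a was lowest at 1.70 ± 0.771 TPM, with 1.15 and 2.24 TPM in replicates 1 and 2. The exact binomial test called Stat5a higher and Yap1 lower in replicate 2, and the edgeR exact test called neither.

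**Figure D4:**
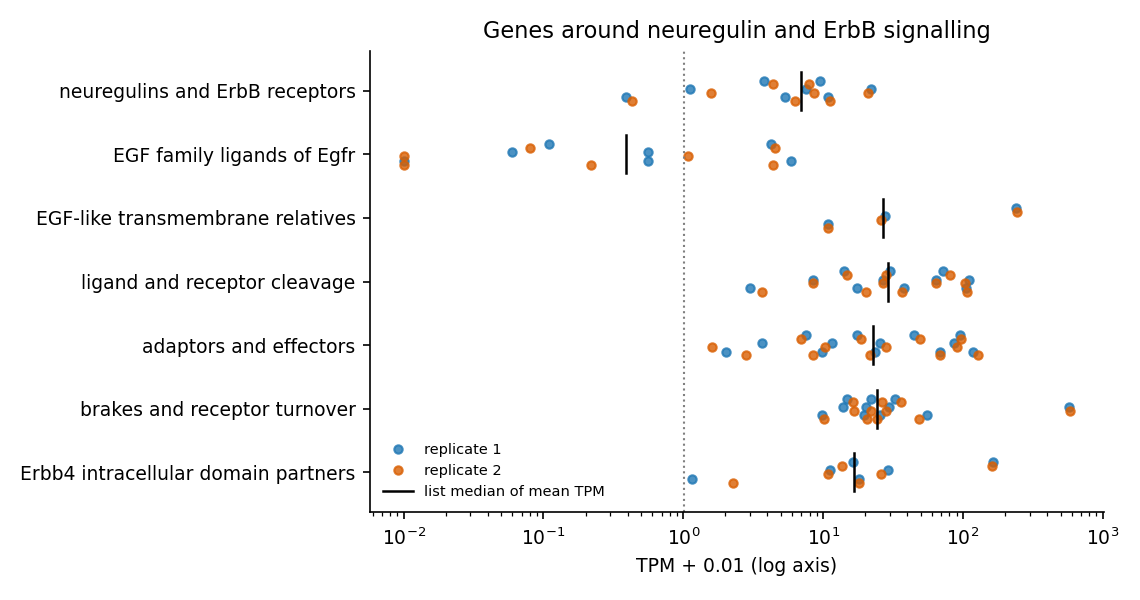
TPM plus 0.01 (log axis) of each gene in 7 lists in replicate 1 (blue) and replicate 2 (orange); black bars are list medians and the dotted line is 1 TPM. The EGF group ligands lie lowest, and the other 5 lists around the family lie at higher medians than the neuregulins and receptors.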

How the data were processed

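RNA of 2 hindbrain libraries was analysed from tables of genes and transcripts on mm10 that, per the file headers and notes, use GENCODE M4 and rest on reads aligned to transcripts. The sources used here name neither the aligner nor the quantifier. The authors deposited expected counts, estimated fragments per gene or transcript that need not be whole. They deposited TPM and a posterior mean TPM, FPKM, and, as a percent, the share of each gene's TPM in each transcript. Libraries held 31633169 and 29766460 expected counts. ERCC spike-ins took 8.39% and 10.9% of TPM, and numbered entries without a gene 0.000107% and 0.000114% of counts. Both stayed out of the tests.

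Symbols, coordinates and exons came from GENCODE M21, also on GRCm38, by Ensembl identifier. Of the 35 transcripts of the members, 32 had the same length in both releases, and exon counts are given for those, apart from Nrg1-201, described by its coding bases.

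Counts were rounded. Genes with 10 or more counts over both libraries were scaled by TMM (edgeR 4.0.16, R 4.3.3) and tested in scipy 1.17.1 with the exact binomial test, two-sided, with Benjamini-Hochberg adjustment over all 19209 genes, at 0.05. A quasi-likelihood fit needs more than 1 library a side, so the edgeR exact test with a common dispersion (coefficient of variation 9.02%) was the alternative, as were DESeq2 1.42.0 size factors, plain totals, spike-in scaling and no count filter. The dispersion was estimated with both libraries taken as 1 group. Levels and shares were also taken from posterior means, rescaled TPM and other transcript lengths. The binomial step was tested on simulated counts that varied by counting error alone, as the test assumes. That simulation does not bear on spread beyond counting error. Intervals cover counting error only, since amplified fragments are not independent molecules. Those of transcript shares also take the allocated counts as observed.

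The members and the lists (6 around the family, 11 of markers) were chosen with earlier results of these data known. Named are all members, the 3 highest and the lowest gene of each list around the family, every listed gene called by the edgeR exact test, every Nrg1 and Erbb4 transcript at 5% or more, and the leading transcript of each other member. A few listed marker genes are not reported here by name. Other genes and transcripts are named for their role, as examples, or after their values were seen.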

Additional observations from a re-analysis of the deposited data

How the results depend on the processing

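No paired analysis was possible because both libraries belong to 1 group. With 1 library left out no comparison between libraries remains. Single-library TPM ranged from 10.81 to 11.12 for Nrg1, 0.38 to 0.42 for Nrg2, 3.75 to 4.39 for Nrg3, 1.10 to 1.57 for Nrg4, 5.30 to 6.29 for Egfr, 20.94 to 21.98 for Erbb2, 7.93 to 9.55 for Erbb3 and 7.48 to 8.58 for Erbb4.

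Among 19209 genes the exact binomial test called 3921, the edgeR exact test 301, and the binomial test scaled by ERCC counts 13010. That scaling moved the median log2 ratio of all genes to -0.37, and 2.51% of its calls were higher in replicate 2, against 52.6%. Under it the log2 ratios turned to -0.34 for Nrg1, -0.27 for Nrg2, -0.13 for Nrg3, -0.024 for Nrg4 and -0.12 for Erbb4, Egfr at 0.18 was no longer called (adjusted p 0.0731, exact binomial test), and Erbb2 at -0.48 and Nrg1 (adjusted p 0.00151) were. Over 8 members and 5 settings, 30 of 40 differences kept direction and call. DESeq2 size factors, plain totals and no count filter left the log2 ratios almost unchanged, so their agreement says little. Every change came from spike-in scaling or from the edgeR exact test, which called none of the 8.

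Posterior mean TPM gave 10.7 for Nrg1, 0.51 for Nrg2, 2.40 for Nrg4 and 6.63 for Egfr, and a share of 27.5% for Erbb4-202. Rescaling to Ensembl genes gave 12.1 for Nrg1, 0.443 for Nrg2, 23.7 for Erbb2 and 8.90 for Erbb4. A pseudocount of 1 TPM gave a receptor to ligand log2 ratio of 1.21. Chosen after seeing the data, the length of the longest coding transcript gave 3.60 for Nrg3, 2.69 for Egfr, 3.26 for Erbb4 and a log2 ratio of 1.13, and coding transcripts alone gave 2.75 for Nrg3, 0 for Nrg4, 4.22 for Egfr, 17.9 for Erbb2 and 6.88 for Erbb4. The cause of these shifts was not tested beyond the length used. Single-library shares were 29.6% to 29.9% for Erbb4-202, 8.19% to 21.2% for Erbb4-203 and 49.0% to 61.7% for Erbb4-205.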

Other observations

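Markers of the other cell types in the dissected tissue give the setting of these levels. The 4 neuron markers summed to 2139 and 2196 TPM in replicates 1 and 2, and the 5 markers of radial glia and progenitors to 2636 and 2401 TPM, led by Fabp7, a radial glial gene that neuregulin signalling is known to raise, at 1304 and 1151 TPM. The 5 markers of cranial sensory ganglia, whose axons carry Nrg1, summed to 144 and 167 TPM, with Pou4f1 at 43.05 and 54.08 TPM. The 4 endothelial markers summed to 93.8 and 97.9 TPM and the 4 microglia markers to 55.5 and 60.1 TPM. The edgeR exact test called none of the genes of these 5 lists, and the exact binomial test called 5 higher and 4 lower of 22, where it called 20.4% of all genes. Of these 22 genes, 1 had an unadjusted p under 0.05 in the edgeR exact test.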
